A study of Mus musculus with 6 samples.

Results

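Shared open regions at one gene end are stretches of accessible chromatin found in every usable library of cultured mouse heart-cushion cells and lying beside a single protein-coding gene. The regions were selected on peak calls in these same libraries: peaks of 5 lists that overlapped by at least 1 bp were merged, and a merged region was kept where it held a peak from all 5 lists and lay within 1 kb of an end of exactly 1 autosomal protein-coding RefSeq gene. The rule kept 5544 of 48279 merged autosomal regions, a share of 11.5%. It kept 5544 of the 12139 regions that all 5 lists shared. Presence in the lists is therefore a description of how the regions were chosen and not a finding.

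The study asked how glucose acts on chromatin in atrioventricular cushion mesenchymal (AVM) cells, in the setting of heart malformations linked to maternal diabetes. The cells were an immortalised mouse line, labelled with the strain H-2Kb-tsA58 transgenic, a background carrying a temperature-sensitive large T antigen, and all 6 libraries came from passage 6. Cells were kept in DMEM with fetal bovine serum and held for 48 h at 5.5 mM glucose (normal glucose, NG, 3 libraries) or 25 mM glucose (high glucose, HG, 3 libraries). ATAC-seq, a method whose transposase inserts adapters into accessible DNA, was run on 54000 cells per library, read as 50 bp pairs. No label says that the replicates were separate cultures, so each p-value rests on a spread among libraries that could be purely technical. All libraries derive from 1 immortalised line, and no animal or fresh tissue was compared.

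Most mammalian genes begin in a short stretch of DNA where nucleosomes are displaced, so that general transcription factors and RNA polymerase II can bind. Many such starts, above all those of genes used in every tissue, sit in CpG islands, which hold binding letters for SP and KLF factors (GC boxes), NF-Y (CCAAT boxes), NRF1, ETS factors and YY1. Starts of strongly tissue-restricted genes more often have a TATA box and few CpG dinucleotides. In the embryonic heart, cushion mesenchyme arises from endocardium by an epithelial-to-mesenchymal transition driven by TGF-beta, BMP and Notch signals, and later forms valves and septa.

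The stretches of 250 bases before 8 gene starts show the kinds of sequence that the regions cover. They are read 5′ to 3′ towards the gene, from RefSeq on GRCm38.p6 (mm10). Capitals mark, on either strand, the GC box GGGCGG, the CCAAT box spelled as its name, the letters TATAAA of the TATA box, the NRF1 core (GCATGCGC), the ETS core (CCGGAAG), the YY1 core (AAGATGGCG), the cyclic-AMP response element (TGACGTCA) or its first part (TGACGT), and the E-box of MYC and USF proteins (CACGTG). Plrg1 and Acap2 are among the highest-ranked regions. Pgam1, Sel1l, Arrdc4, Tgfbr1 and Tbx20 lead the glycolysis, unfolded protein response, glucose-sensing, TGF-beta and cushion-factor lists or stand among their first 3. Nppa, a cardiomyocyte gene without any gene-end peak across the 5 lists, is shown for contrast and was picked after its status was known.
Plrg1: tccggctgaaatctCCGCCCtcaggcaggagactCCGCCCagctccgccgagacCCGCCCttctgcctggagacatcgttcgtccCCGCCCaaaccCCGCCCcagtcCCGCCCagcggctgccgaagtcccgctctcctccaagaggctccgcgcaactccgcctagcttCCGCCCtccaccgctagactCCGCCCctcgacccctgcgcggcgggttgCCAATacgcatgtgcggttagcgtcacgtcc
Acap2: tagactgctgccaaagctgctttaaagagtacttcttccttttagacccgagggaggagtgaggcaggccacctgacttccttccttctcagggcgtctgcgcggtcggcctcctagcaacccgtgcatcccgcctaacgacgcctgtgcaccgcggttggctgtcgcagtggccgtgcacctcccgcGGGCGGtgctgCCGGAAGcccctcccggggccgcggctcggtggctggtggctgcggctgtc
Pgam1: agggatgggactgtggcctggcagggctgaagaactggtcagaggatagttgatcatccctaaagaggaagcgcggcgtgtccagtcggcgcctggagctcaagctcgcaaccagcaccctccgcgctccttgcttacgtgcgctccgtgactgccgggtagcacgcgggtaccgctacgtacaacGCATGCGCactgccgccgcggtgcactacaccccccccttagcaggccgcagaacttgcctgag
Sel1l: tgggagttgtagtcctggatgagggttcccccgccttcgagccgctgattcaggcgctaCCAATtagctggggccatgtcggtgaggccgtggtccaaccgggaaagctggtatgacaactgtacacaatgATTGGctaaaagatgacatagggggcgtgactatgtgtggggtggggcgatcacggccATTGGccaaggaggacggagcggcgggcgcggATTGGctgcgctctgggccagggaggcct
Arrdc4: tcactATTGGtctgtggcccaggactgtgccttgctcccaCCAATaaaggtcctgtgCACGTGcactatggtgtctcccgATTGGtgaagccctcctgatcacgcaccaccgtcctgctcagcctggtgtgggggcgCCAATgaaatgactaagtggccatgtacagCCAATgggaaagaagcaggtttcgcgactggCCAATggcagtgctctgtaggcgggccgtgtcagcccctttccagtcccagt
Tgfbr1: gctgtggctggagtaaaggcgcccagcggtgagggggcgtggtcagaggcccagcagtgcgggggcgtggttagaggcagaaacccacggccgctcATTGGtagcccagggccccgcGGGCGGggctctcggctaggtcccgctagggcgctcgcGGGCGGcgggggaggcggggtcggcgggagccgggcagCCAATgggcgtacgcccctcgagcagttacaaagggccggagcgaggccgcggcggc
Tbx20: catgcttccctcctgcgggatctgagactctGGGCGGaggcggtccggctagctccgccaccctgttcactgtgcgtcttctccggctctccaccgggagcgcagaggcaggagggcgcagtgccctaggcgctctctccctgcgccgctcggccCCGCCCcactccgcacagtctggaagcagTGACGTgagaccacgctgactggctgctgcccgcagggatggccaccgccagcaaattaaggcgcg
Nppa: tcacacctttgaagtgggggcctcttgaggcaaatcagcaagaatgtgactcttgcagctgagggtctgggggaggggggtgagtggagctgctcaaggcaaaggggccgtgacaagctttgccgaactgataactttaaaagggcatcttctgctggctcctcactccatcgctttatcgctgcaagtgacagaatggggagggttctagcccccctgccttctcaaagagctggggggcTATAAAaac

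Plrg1 (chr3:83055288-83055537, plus strand) encodes a splicing factor, and its stretch held 8 GC boxes and 1 CCAAT box. Acap2 (chr16:31201239-31201488, minus strand), which encodes a GTPase-activating protein for ARF6, had 1 GC box and 1 ETS core close together near the start. Pgam1 (chr19:41911621-41911870, plus strand), a phosphoglycerate mutase of glycolysis, had 1 NRF1 core. Sel1l (chr12:91849158-91849407, minus strand), a subunit of the machinery that clears misfolded proteins from the endoplasmic reticulum, had 4 CCAAT boxes, and Arrdc4 (chr7:68749239-68749488, minus strand), an arrestin relative of Txnip, had 6 CCAAT boxes and 1 E-box. Tgfbr1 (chr4:47352972-47353221, plus strand), the type I TGF-beta receptor, had 2 GC boxes and 2 CCAAT boxes. Tbx20 (chr9:24774304-24774553, minus strand), a T-box factor of the developing valves, had 2 GC boxes and 1 TGACGT. The stretch of Nppa (chr4:148000472-148000721, plus strand) held none of these except 1 TATA box directly before the start. These 250 bases held 28 CpG dinucleotides at Plrg1, 22 at Acap2, Pgam1 and Tbx20, 16 at Sel1l, 9 at Arrdc4, 29 at Tgfbr1 and 4 at Nppa. A match is a description of letters and not evidence of binding.

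The 5 lists that entered the rule held between 22156 and 40350 peaks, and NG replicate 3 was the longest. The list of NG replicate 2 held 66 peaks and entered no comparison. Each list gives, per peak, a position, a summit, a fold enrichment and a -log10 p from the authors' peak caller, but no read counts, so depth is unknown. Strength is given here as a percentile, the rank of a region's strongest peak by the authors' -log10 p within that library's own autosomal list, where 100 is the strongest peak. Because lists of unequal length give unequal percentiles, a percentile is read within a library. Of 20665 autosomal protein-coding genes, 25.7% had a member. Of the mesenchymal markers, 7 of 15 did (Vim, Acta2, Tagln, Fn1, Cdh2, Cdh11 and Snai2), against 0 of 10 endothelial, 1 of 9 autosomal blood, 1 of 10 cardiomyocyte and 3 of 10 epithelial or epicardial markers. Pdgfra, Pdgfrb, Prrx1 and Col1a2, also mesenchymal markers, lacked a gene-end peak in all 5 lists.

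The members lay almost entirely at gene starts. Strand was known from the RefSeq promoter table for 4525 members, and 97.8% of these lay within 1 kb of the start of their gene (4404 at the start only and 20 within reach of both ends). The other 101 lay only at the far end, where the gene stops. For 1019 members no strand was given. The merged region covered the gene end itself for 4138 members (74.6%), lay up to 500 bp away for 992 and between 500 and 1000 bp away for 414. Regions were short, with a median width of 359 bp (quartiles 277 and 459 bp, range 111 to 1311 bp), and 4277 (77.1%) held exactly 1 peak from each list. At the limit of the rule, the members just inside belonged to Aadacl4fm2 (1000 bp from the gene end) and Cdc20b (999 bp), and the shared regions just outside lay near Ptbp2 (1002 bp) and Slc9a3r1 (1006 bp). Their lowest percentiles over the 5 libraries were 33.7, 21.3, 14.7 and 60.05.

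The summits, the points of highest signal, gathered just upstream of the start in every library. Of 4424 start members, 53.7% had their median summit 1 to 150 bp upstream, 19.3% from the start to 150 bp downstream and 13.7% beyond 150 and up to 500 bp upstream. The median summit stood 51 bp upstream in NG replicate 1, 54 bp in NG replicate 3, 54 bp in HG replicate 1, 49 bp in HG replicate 2 and 49 bp in HG replicate 3. Library pairs differed by a median of 19 to 22 bp in the position of the same member's summit, both within and between glucose groups. For 135 start members (3.05%) the median summit was over 1000 bp from the nearest start in the promoter table, as at Setd5, whose table starts lay elsewhere than its outer gene end.

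**Figure D1:**
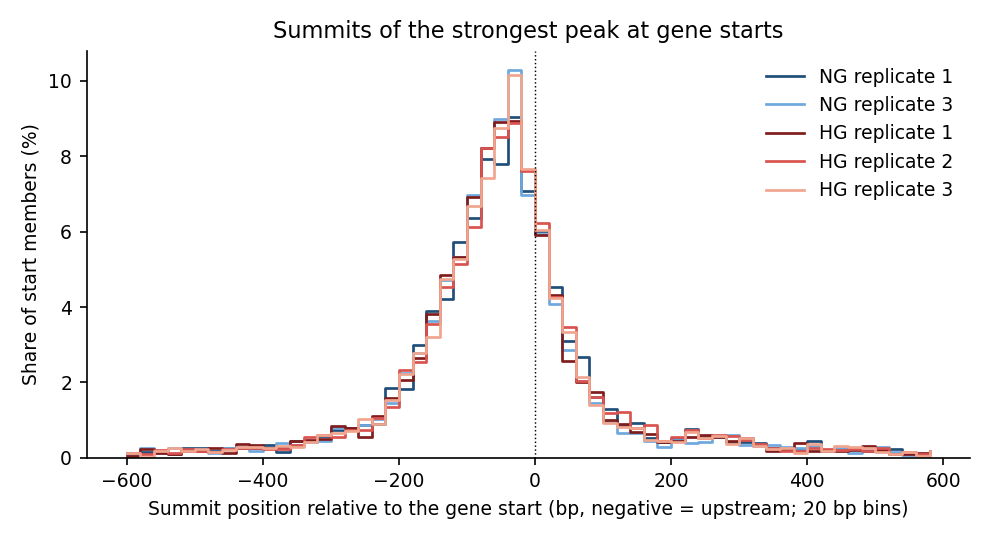
Position of the summit of the strongest peak relative to the gene start (x axis, bp, 20 bp bins, negative values upstream) against the share of 4424 start members in percent (y axis), 1 line per library. The 5 lines lie over each other and peak just upstream of the start, with library medians 49 to 54 bp upstream.

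Neither the summit distance nor the peak width of the members differed between glucose levels beyond the spread of the libraries. The median distance from summit to gene end was 95 and 89 bp in NG replicates 1 and 3, and 91, 92 and 89.5 bp in HG replicates 1, 2 and 3. The 2 groups overlapped, at 92.0 ± 4.24 bp (SD, n = 2) for NG and 90.8 ± 1.26 bp (SD, n = 3) for HG, a difference of -1.17 bp (two-sided exact permutation p = 0.8). Median peak width was 207 and 292 bp in the NG libraries and 231, 248 and 221 bp in the HG libraries, so that the NG values enclosed the HG values. The difference in width was -16.2 bp (HG 233.3 ± 13.7 bp, n = 3; NG 249.5 ± 60.1 bp, n = 2; exact permutation p = 0.8). With 2 against 3 libraries this test cannot give a p under 0.1. Both differences turned on 1 NG library: without NG replicate 1 the distance differed by 1.33 bp the other way, and without NG replicate 3 the width differed by 26 bp the other way.

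Members held stronger and wider peaks than shared regions away from gene ends in 5 of 5 libraries, while no difference in strength from regions at paired gene ends held across the ways of ranking peaks. The comparison sets had also been required to hold a peak in all 5 lists: 1244 regions near ends of 2 or more genes, 3080 inside genes and 2271 outside genes, both of the latter over 1 kb from any gene end. The median percentile of members was 78.5 in NG replicate 1, 87.6 in NG replicate 3, 78.2 in HG replicate 1, 81.4 in HG replicate 2 and 79.8 in HG replicate 3. Members stood above gene-body regions by 13.6 ± 4.02 percentile points (mean and SD of the library differences, n = 5) and above regions outside genes by 17.2 ± 5.08 points (n = 5), higher in 5 of 5 libraries in both cases. Against regions at ends of 2 or more genes the difference was -0.412 ± 0.307 points (n = 5), lower in 5 of 5 libraries. That sign was kept in only 3 of 5 libraries when peaks were ranked by fold enrichment (-0.071 points, exact sign-flip permutation p = 0.688), when lists were cut to equal length (-0.069 points, exact p = 0.75) and when peaks needed a -log10 q of 5 (-0.429 points, exact p = 0.25). Their strongest peaks were 49.2 ± 13.0 bp wider than in gene bodies, 55.6 ± 12.1 bp wider than outside genes and 12.7 ± 2.82 bp narrower than at paired ends (n = 5 each). With peaks ranked by -log10 p in the whole lists, each of the 6 comparisons gave a two-sided exact sign-flip permutation p of 0.063, the smallest that 5 libraries allow, so none could pass 0.05.

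**Figure D2:**
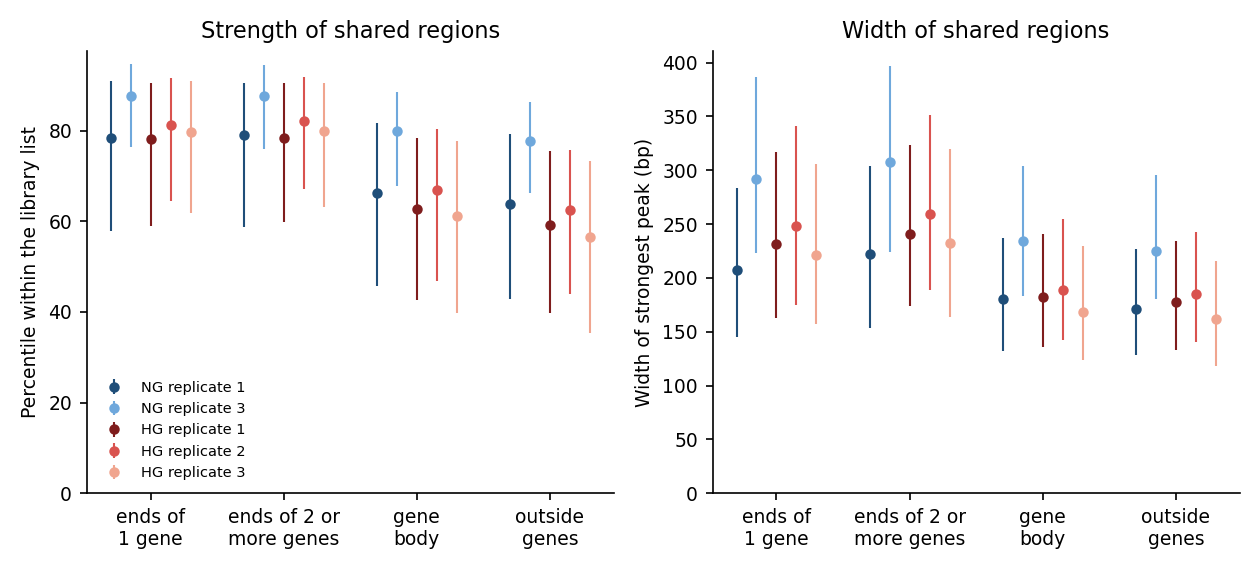
Percentile within the library's own list (left y axis) and width in bp of the strongest peak (right y axis) for shared regions at ends of 1 gene, at ends of 2 or more genes, in gene bodies and outside genes. Points are medians and bars run between quartiles over regions, 1 colour per library; in every library the medians at gene ends lie above those in gene bodies and outside genes.

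Being found in all 5 lists was also common for this class, which is a property of the selection and carries no test. Of 11796 merged regions at 1 gene end, 47.0% were in all 5 lists, against 54.7% at paired ends, 17.0% in gene bodies and 14.1% outside genes. Another 1169 one-end regions were in 4 lists, and the list without them was HG replicate 1 for 414, NG replicate 1 for 319, HG replicate 3 for 240, HG replicate 2 for 170 and NG replicate 3, the longest list, for 26. Strength was shared between libraries: over the 5544 members, Spearman's rank correlation of the percentiles of library pairs ran from 0.733 to 0.807. The pair of NG libraries gave 0.735, pairs of HG libraries gave 0.795 to 0.807 and pairs between groups gave 0.733 to 0.796. These values are over regions, which are not replicates. Within a library, stronger members were also wider (rank correlation 0.400 to 0.532), and both measures come from the same peak call.

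The strongest members lay at ends of genes with quite different roles. Members were ranked by the lowest of their 5 percentiles, and clone-type symbols such as Gm numbers and Rik clones were passed over. The first 12 were then Acap2, Pgbd5, Rfx2, Mafa, Plrg1, Cyp46a1, Opn3, Grhl1, Fzr1, Atp1b3, Fam53a and Uxs1, all at 99.66 or above in each of the 5 libraries. At Acap2 (region chr16:31201129-31201453, 325 bp, summit 65 bp upstream of the start) the authors' fold enrichment was 29.1 and 28.1 in NG replicates 1 and 3 and 32.4, 29.9 and 27.1 in HG replicates 1 to 3. At Plrg1 (chr3:83055261-83055588, summit 167 bp upstream, within the stretch with 8 GC boxes) it was 27.5, 29.7, 29.3, 32.7 and 29.3 in the same order. The region of Pgbd5, a gene derived from a piggyBac transposase, differed in place: it lay 532 bp upstream of the gene, with a summit 659 bp upstream. Rfx2, a factor of ciliated cells and spermatogenesis, Mafa, a factor of pancreatic beta cells, Cyp46a1, a brain cholesterol hydroxylase, Opn3, an opsin, and Grhl1, an epithelial factor, are best known from other tissues. Fzr1, an activator of the anaphase-promoting complex, Atp1b3, a sodium pump subunit, and Uxs1, an enzyme of UDP-xylose synthesis, are broadly used genes.

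Many members were much weaker. Over all members the percentile in the weakest library had a median of 65.2 (quartiles 38.4 and 84.3). It was at least 90 for 893 members and under 5 for 127. The weakest were Stk39, a kinase of ion transport, at percentiles 0.107 and 60.1 in NG replicates 1 and 3 and 21.6, 60.8 and 75.2 in HG replicates 1 to 3, then Plekhg2, a guanine nucleotide exchange factor, lowest in NG replicate 1 at 0.216, and Nsmce4a, a subunit of the SMC5/6 complex, lowest in HG replicate 1 at 0.429. Each of these 3 was held in the set by a bottom-ranked peak in 1 library while standing at 55.4 or higher in another. The widest members belonged to Setd5 (1311 bp), a chromatin regulator, Rbm15 (1108 bp), an adaptor of RNA methylation, Kmt2c (1068 bp), a histone H3 lysine 4 methyltransferase, Mon1b (985 bp) and Garnl3 (980 bp). In each of the 5 the merged region was wider than the strongest peak of any library, and at Kmt2c the strongest peak was 250 to 375 bp wide in 4 libraries and 883 bp in HG replicate 2. Ankrd10 was the only gene with 3 members, and 234 genes had 2, so members of 1 gene are not independent.

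CpG content differed between genes with a member at the start and genes with no gene-end peak. The sequence runs from 250 bases before to 50 after the start were available for 14811 autosomal protein-coding genes whose table start lay within 1 kb of the outer gene end, of which 4088 had a member there and 6441 lacked a gene-end peak in all 5 lists. Median GC content was 63.0% at members and 48.7% at genes without a peak, and the median ratio of observed to expected CpG was 0.811 against 0.216. Calling a start CpG-rich where GC exceeded 50% and that ratio exceeded 0.6, 80.7% of member starts and 14.0% of starts without a peak were CpG-rich, beside 47.6% of all 14811. The share was 81.5% at 1704 starts of genes with a shared region only at paired gene ends, so this trait is not particular to members. Put the other way, 3298 of 7046 CpG-rich starts (46.8%) had a member and 902 (12.8%) had no gene-end peak, while 790 of 7765 other starts (10.2%) had a member and 5539 (71.3%) had no peak. The share of CpG-rich starts was 72.0, 75.4, 82.8 and 92.2% in 4 equal groups of members, from the weakest to the strongest by their lowest percentile.

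Within the members, strength and width moved with CpG content in each library. The 3427 members at CpG-rich starts had median percentiles of 80.7, 89.1, 81.3, 84.2 and 82.7 in NG replicates 1 and 3 and HG replicates 1, 2 and 3. The 826 at other starts had 71.5, 85.8, 71.1, 74.5 and 71.5 in the same order. The difference was 8.71 ± 3.11 points in percentile and 44.4 ± 7.47 bp in width (mean and SD, n = 5 libraries, higher in 5 of 5; exact sign-flip permutation p = 0.063 for both, the smallest possible). The smallest gap in percentile, 3.29 points, was in NG replicate 3. This comparison, and that of starts with far ends below, was added after the data had been seen. GC content can also affect amplification of the libraries, and its part was not tested. High-ranked members without CpG-rich starts existed too, among them Tmem231, a protein of the ciliary transition zone, Prkra, an activator of the kinase PKR, and Zyx, the focal adhesion protein zyxin. These stood at 99.1, 98.8 and 97.9 in their weakest libraries. Their CpG ratios of 0.552, 0.510 and 0.580 lay not far under the limit of 0.6, with GC contents of 58.3, 67.3 and 68.3%.

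The motif content of member starts followed these classes, with some motifs more common at members than at starts without a peak within a CpG class as well. Shares below are of the 300-base runs with at least 1 match on either strand, first at members, then at all 14811 starts, then at starts without a gene-end peak. GC boxes (GGGCGG) were in 75.5, 47.8 and 20.9%, ETS cores (CCGGAAG) in 19.3, 12.4 and 3.2%, NRF1 cores (GCATGCGC) in 7.1, 3.8 and 1.0%, and YY1 cores (AAGATGGCG) in 3.4, 2.0 and 0.2%. The order was opposite for TATA boxes (TATAAA), at 5.7, 13.9 and 23.4%, GATA letters (AGATAA), at 4.0, 9.8 and 15.7%, and AP-1 letters (TGANTCA), at 4.2, 7.1 and 10.2%. The site of the enzyme EcoRI (GAATTC), which stands for no mammalian factor and served as a control for base composition, was in 3.6, 5.4 and 7.1%. Starts of the 1704 genes with a shared region only at paired gene ends resembled members. There GC boxes were in 69.2%, ETS cores in 26.2%, NRF1 cores in 6.1%, YY1 cores in 4.6% and TATA boxes in 4.7%. Among CpG-rich starts alone, ETS cores were in 20.5% of 3298 members and 7.3% of 902 starts without a peak, NRF1 cores in 7.7 and 3.9%, YY1 cores in 3.8 and 1.0%, CCAAT boxes in 42.4 and 29.2% and GC boxes in 81.2 and 71.1%. TATA boxes there were in 4.7 and 6.3%, and the EcoRI site was in 3.1 and 2.2%.

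Position and strength added to this picture for a few motifs. CCAAT boxes were in 33.9, 36.7, 46.8 and 54.3% of member starts in the same 4 groups from weakest to strongest, and GC boxes in 66.9, 71.3, 78.1 and 85.5%. ETS cores did not follow that order, at 21.1, 19.6, 19.5 and 16.9%. In member starts the median position of the first base of a match was 60 bp upstream for GC boxes, 80.5 bp for CCAAT boxes and 31.5 bp for ETS cores. YY1 cores lay a median of 16.5 bp downstream. TATAAA lay a median of 154 bp upstream, with 27.6% of its matches in the 100 bp before the start. At starts without a peak these values were 87 bp and 47.8%, so a TATAAA match is not by itself a TATA box in use. The TGACGTCA element was in 3.6% of member starts, 2.5% of all and 1.0% without a peak, and its shorter form TGACGT, which every TGACGTCA contains, in 13.5, 9.0 and 4.3%. CACGTG was in 11.2, 8.1 and 4.8%. The letters of TEAD (GGAATG; 11.1, 13.0 and 15.0%), RUNX (TGTGGTT; 3.1, 4.9 and 6.9%), T-box factors (AGGTGTGA; 0.5, 1.2 and 1.8%) and muscle-type bHLH factors (CAGCTG; 14.0, 14.9 and 16.1%) were in smaller shares of members than of starts without a peak. Those of ZNF143 (ACTACAA; 4.5, 4.0 and 3.2%) and the antioxidant element (TGACNNNGC; 17.0, 13.3 and 10.96%) were in larger shares. RFX (GTTGCCATG) and SMAD letters (GTCTAGAC) were in at most 0.6% of each set. Among CpG-rich starts alone, the direction turned for TEAD letters, in 10.4% of members and 7.8% of starts without a peak. It also turned for RUNX letters (2.8 and 2.2%), as for the EcoRI control. T-box letters (0.4 and 1.0%) and CAGCTG (12.9 and 16.0%) stayed less common at members there.

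**Figure D3:**
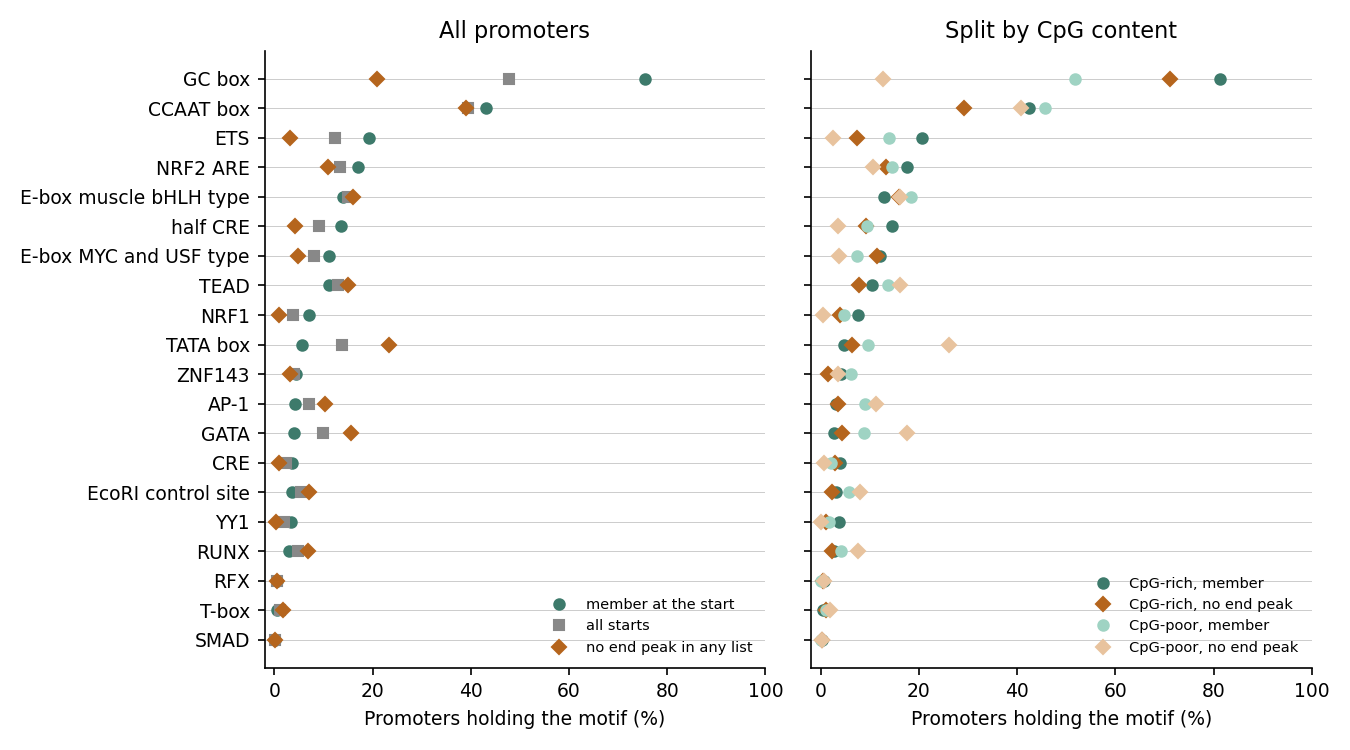
Share of gene starts (x axis, percent of 300-base runs with at least 1 match on either strand) holding each of 20 motifs (y axis). Left, starts with a member, all starts and starts without a gene-end peak; right, members and starts without a peak split by CpG content. GC boxes reach 75.5% of member starts, and ETS and GC box shares are higher at members than at starts without a peak within both CpG classes.

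Some member starts lay beside the start of a noncoding gene on the other strand. The promoter table placed the start of a noncoding RNA gene on the other strand within 1 kb of 549 of 4424 start members (12.4%), among them Opn3, Inpp5a and Tpt1, while noncoding starts on either strand lay near 2 of 101 far-end members (1.98%). A microRNA hairpin lay within 1 kb of 43 members, including Mir5627 at Dnajb9, an endoplasmic reticulum chaperone gene. The rule counts only protein-coding genes, so such pairs remain in the set while protein-coding pairs were removed.

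The 101 far-end members were weaker and narrower than members at starts. Median percentiles at far ends were 69.4 and 76.6 in NG replicates 1 and 3 and 59.1, 60.9 and 54.0 in HG replicates 1 to 3, against 79.0, 88.2, 79.0, 82.2 and 80.4 at starts. Starts stood 17.8 ± 7.03 points above far ends and their peaks were 71.4 ± 19.8 bp wider (mean and SD, n = 5, both in 5 of 5 libraries; exact sign-flip permutation p = 0.063). The gap in percentile was 9.53 and 11.6 points in the NG libraries and 19.98, 21.3 and 26.4 points in the HG libraries. The groups did not overlap, but this was not particular to far ends. Members minus gene-body regions gave 12.07 and 7.73 points in the NG libraries and 15.38, 14.36 and 18.51 in the HG libraries. Members minus regions outside genes and CpG-rich minus other starts also separated the groups, whereas members minus paired ends did not. Lists of unequal length give unequal percentiles, and NG replicate 3 had the longest list. In lists cut to equal length, members minus gene-body regions gave 11.1 and 12.4 points in NG and 13.8, 15.0 and 17.2 in HG. Members minus regions outside genes gave 13.9 and 16.5 points there in NG and 17.2, 19.5 and 21.7 in HG. The difference between glucose groups was not tested. A few far ends were strong in every library: Fhl3, a LIM-domain protein of muscle (438 bp beyond the end of the gene), Fam120a, an RNA-binding scaffold (327 bp), and Ctdsp1, a phosphatase of RNA polymerase II (7 bp), had weakest-library percentiles of 96.7, 96.4 and 94.4. The nonagouti gene a, a pigment signal, followed at 88.9, and the mitochondrial leucyl-tRNA synthetase gene Lars2 at 85.9.

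How often genes carried a member varied widely with the kind of gene. Of 20665 autosomal protein-coding genes, 5308 (25.7%) had at least 1 member, 2192 (10.6%) had a shared region only near an end that another gene shared, 3575 (17.3%) had an end peak in some but not all lists, and 9590 (46.4%) had none. The rule chose the regions, so 25.7% is the background against which the lists below are read, with no test. One limit applies throughout: gene ends are outer ends, so a peak at an inner start is not counted. Of the 9590 genes without an end peak, 1660 had an inner start in the promoter table over 1 kb from the outer end, and 476 of these (28.7%) had a shared region there, among them Hk1, Aldoa, Srf, Dnmt1 and Txnrd1.

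Of 34 TGF-beta and BMP genes, 20 (58.8%) had a member. They included the receptors Tgfbr1, Tgfbr2, Acvrl1 and Bmpr2, and the signal carriers Smad1, Smad2, Smad3, Smad4 and Smad5. The ligand Tgfb3 also had one, with a weakest percentile of 29.7. The ligands Bmp2, Bmp4, Bmp6, Bmp7 and Tgfb2 and the receptor Bmpr1b had no gene-end peak, the ligand Tgfb1 and the receptor Acvr1 had a shared region only at an end shared with another gene, and the co-receptor Eng and the signal carrier Smad9 had gene-end peaks in some lists only. Tgfbr1 stood at percentiles 93.3 and 99.0 in NG replicates 1 and 3 and 97.6, 98.2 and 98.3 in HG replicates 1 to 3. Skil, a repressor of SMAD complexes, had a weakest percentile of 93.1 and Smad2 of 85.7. Of 28 Notch genes 12 (42.9%) had a member, led by the target gene Hey2 at 99.5, the receptor-cleaving proteases Adam10 at 98.8 and Adam17 at 86.2, and Numb, an inhibitor of the pathway, at 91.4. The ligand Jag1 (18.8) and the receptor Notch2 (47.8) had weak members.

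Of 36 transcription factors of cushions and valves, 15 (41.7%) had a member. Tbx20 was the most even, at 92.0 and 93.4 in the NG libraries and 93.8, 93.8 and 94.2 in the HG libraries. Tbx3, which marks the atrioventricular canal, had a weakest percentile of 80.0, and Id1, a BMP target, of 77.1, its region lying 949 bp from the gene end. Sox4 was the weakest of the list at 1.117, in NG replicate 1, while Tbx2, Tbx5, Hand1, Msx2 and Nfatc1 had no gene-end peak. Of 32 matrix genes 13 (40.6%) had a member, led by P4ha1, a collagen prolyl hydroxylase, at 94.9 and Fbln2, fibulin 2, at 91.5. Sparc, a collagen-binding matricellular protein, came next at 55.7, and the median of the list was 37.6, below the 65.2 of all members.

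Actin and serum-response genes, AP-1 and other immediate early genes and Hippo genes were often members. For the cytoskeleton list the count was 16 of 23 (69.6%), led by Zyx, vinculin (Vcl) and non-muscle myosin Myh9 at 97.9, 97.6 and 97.6. Vim was at 53.3 and Acta2, smooth muscle actin, at 12.9, where its percentiles were 12.9 and 73.2 in NG replicates 1 and 3 and 23.8, 76.0 and 27.8 in HG replicates 1 to 3. Of 26 AP-1 and immediate early genes 17 (65.4%) had a member, led by the Krüppel-like factors Klf2, Klf6 and Klf10 at 98.4, 98.3 and 93.5. The AP-1 gene Jun was at 84.8, while Fos, Fosb and Fosl1 had end peaks in some lists only. Of 24 Hippo genes 15 (62.5%) had a member, led by the kinases and regulators Nf2, Stk3 and Lats2 at 95.1, 90.6 and 89.95.

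Genes of glucose use and glucose sensing had members at more than the background share, as did the signalling, stress and growth lists. Of 31 glycolysis and uptake genes 14 (45.2%) had a member. Pgam1 was first, at 99.9 and 99.3 in the NG libraries and 99.9, 99.8 and 99.7 in the HG libraries, with the enolase Eno1 at 96.1 and the phosphofructokinase Pfkl at 91.2 in their weakest libraries. The glucose transporter Slc2a1 was at 70.1 and Hk2 at 67.4. Of 23 genes of glucose sensing, hexosamine and polyol pathways 12 (52.2%) had a member, among them the sterol factor Srebf2 (96.1), Arrdc4 (95.9), the aldose reductase Akr1b3 (89.7), Mlxip, which encodes the glucose-sensing factor MondoA (86.6), and Txnip, a glucose-induced inhibitor of thioredoxin and glucose uptake (81.3). At Arrdc4 the percentiles were 96.7 and 99.0 in NG replicates 1 and 3 and 96.1, 95.9 and 96.3 in HG replicates 1 to 3. At Txnip they were 91.7 and 91.8 in the NG libraries and 81.3, 88.1 and 95.1 in the HG libraries. These percentiles are of whole lists of unequal length, so no comparison of glucose levels is drawn from them.

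Stress and growth lists were well represented. Of 26 unfolded protein response genes 16 (61.5%) had a member, and their median weakest percentile, 88.0, was the highest of all lists with members. Sel1l, Dnajc3 and Pdia4 led at 97.8, 95.9 and 95.3. The chaperone Hspa5 stood at 98.5 and 98.8 in the NG libraries and 93.2, 99.2 and 96.4 in the HG libraries. Of 23 oxidative stress genes 16 (69.6%) had a member, led by Bach1, a heme-regulated repressor, at 96.2, thioredoxin (Txn1) at 86.6 and the activator Nfe2l2 at 85.8. Hmox1 was at 11.8. Replication and mitosis genes had 20 of 34 (58.8%), led by Ccnb1, Cdk4 and Mcm5 at 98.9, 98.5 and 98.4, and chromatin regulators 18 of 34 (52.9%), led by the remodeller Smarca4 at 98.9 and the histone demethylases Kdm4b and Kdm3a at 96.6 and 90.9. Nitric oxide signalling came near the background with 7 of 24 (29.2%), mostly calmodulin and chaperone genes such as Calm2 at 84.3, Hsp90aa1 at 82.8 and Calm3 at 72.1, and Nos3 had an end peak in some lists only.

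Lists of other cell types had few members. None of 20 endothelial and none of 16 neuronal markers had one, and 15 and 13 of them lacked a gene-end peak in all 5 lists. Cardiomyocyte markers had 2 of 20: the calcium pump Atp2a2, also used outside muscle, at 85.7 in its weakest library, and Nppb at 54.4. Blood markers had 1 of 17, Spi1, at percentiles 51.5 and 61.3 in NG replicates 1 and 3 and 29.3, 43.5 and 11.6 in HG replicates 1 to 3. Epithelial and epicardial markers had 3 of 16, the epicardial and mesothelial genes Upk3b, Wt1 and Upk1b at 87.2, 82.1 and 61.3, while Epcam, Cdh1, Krt8 and Krt18 had no end peak. Wt1 stood at 91.2 and 96.3 in the NG libraries and 82.1, 92.3 and 91.0 in the HG libraries.

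Symbol families spanned the whole range. Members were most frequent among E2 ubiquitin-conjugating enzymes (22 of 34 genes, 64.7%), translation initiation factors (31 of 53, 58.5%), Rab GTPases (30 of 55, 54.5%) and Srsf, Sf3 and Snrp splicing factors (16 of 32, 50.0%). Zinc finger Zfp genes had 156 of 388 (40.2%), proteasome subunits 18 of 46 (39.1%) and cytosolic ribosomal proteins 36 of 94 (38.3%). Mitochondrial ribosomal proteins were at the background with 20 of 78 (25.6%), and another 26 of them had a shared region only at an end shared with a second gene. Solute carriers had 100 of 362 (27.6%), cytochrome P450 enzymes 8 of 99 (8.1%), Hox genes 3 of 39 (7.7%) and keratins 1 of 53 (1.9%). Olfactory receptors (1104 genes), vomeronasal receptors (352), defensins (71) and keratin-associated proteins (56) had 0. By chromosome, the share of genes with a member ran from 15.3% on chromosome 7 and 16.9% on chromosome 14 to 32.5% on chromosome 8.

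**Figure D4:**
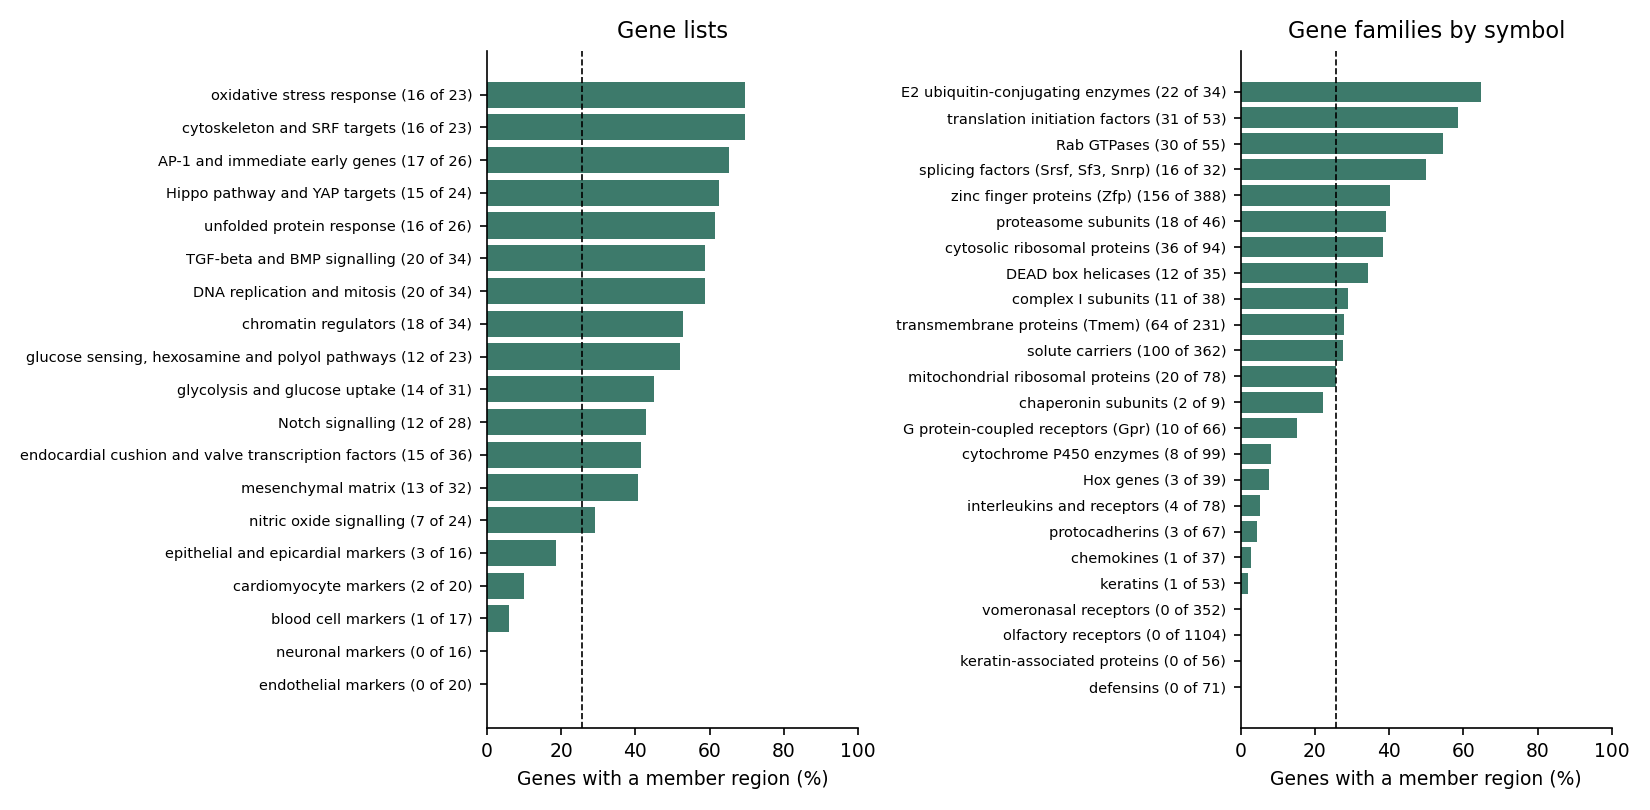
Share of genes with a member region (x axis, percent) for 19 gene lists (left) and 24 families taken by symbol (right), with counts beside each name. The dashed line is the background of 25.7% of all autosomal protein-coding genes; signalling, stress and growth lists lie above it and lists of other cell types below.

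The order of strengths among the shared regions was compared between glucose levels. This order is not independent of the rule. Lists hold only the peaks that the authors' peak caller reported, and strength is ranked by that caller's p. Regions lacking a peak in some list were left out, so a change strong enough to remove a peak could not be seen. The 12139 shared regions were ranked within each library, the ranks were put on a normal scale and HG was compared with NG by limma over all of them. No region passed an adjusted p of 0.05, so 0% of 12139 were called and 0 of 5544 members, and the smallest adjusted p of a member in limma was 0.739. At an unadjusted p under 0.05 limma gave 331 members (5.97%) and 813 of all shared regions (6.70%). Leaving out any 1 library, or using other rank scales, also gave 0 members. The genes named next are among those with the smallest unadjusted p and were not called.

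Values among shared regions (percentile among the 12139) show how far the libraries stood apart at these members. At Psap, which encodes the precursor of lysosomal saposins, they were 8.87 and 1.27 in NG replicates 1 and 3 and 62.0, 57.7 and 59.8 in HG replicates 1 to 3. Elk4, a cofactor of the serum response factor, was at 9.47 and 10.5 in NG and 60.5, 54.9 and 69.8 in HG. The groups did not overlap at either gene, but both genes were picked for small p, so this is no result in itself. Dnaja2, a co-chaperone, was at 4.27 and 3.596 in NG and 29.3, 41.4 and 46.8 in HG, and Stk38, a Hippo-related kinase, at 16.6 and 3.16 in NG and 53.6, 64.8 and 57.8 in HG. On the normal scale the HG minus NG difference at Psap was 2.04 ± 0.38 (SE; limma adjusted p = 0.739).

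In the other direction, Smo, the signal transducer of the Hedgehog pathway, was at 84.6 and 81.5 in NG replicates 1 and 3 and 30.4, 39.7 and 37.1 in HG replicates 1 to 3, a difference of -1.33 ± 0.33 (SE; limma adjusted p = 0.739). Arhgef39, a guanine nucleotide exchange factor, was at 52.3 and 70.1 in NG and 16.8, 13.1 and 11.2 in HG. The groups did not overlap at these genes either. Dis3l, a cytoplasmic exosome nuclease, was at 33.1 and 55.6 in NG and 5.93, 9.05 and 7.10 in HG, Tbc1d31, a centrosomal protein, at 21.0 and 38.4 in NG and 2.75, 5.44 and 0.56 in HG, and Ccdc124 at 52.1 and 77.6 in NG and 19.2, 18.2 and 17.5 in HG. At each gene named here the separation lay between 2 and 3 libraries, and regions were picked for it from 12139. The share of all 12139 regions at which the groups did not overlap was not computed.

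**Figure D5:**
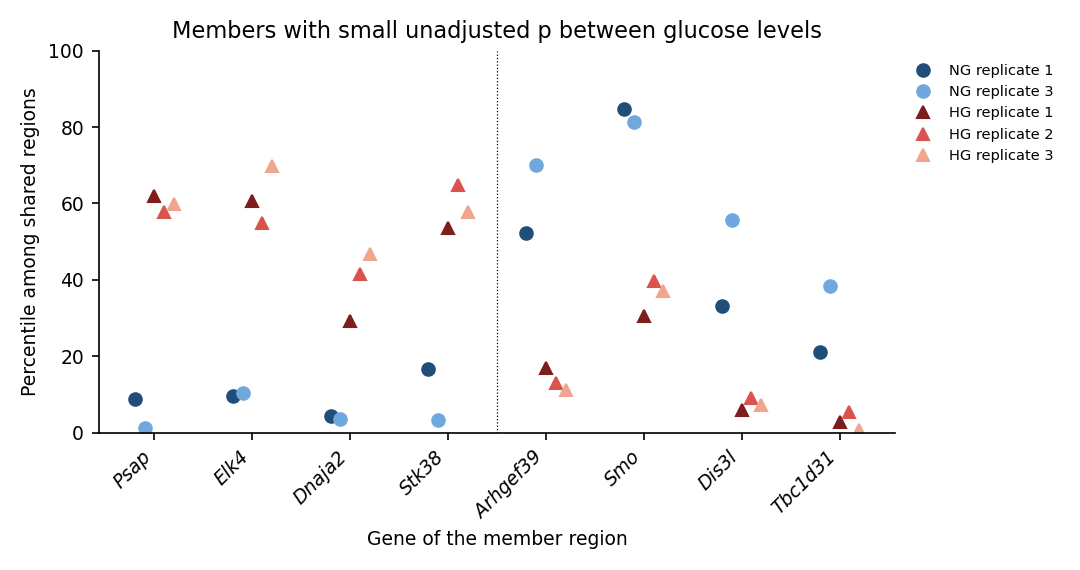
Percentile among the 12139 shared regions (y axis) in each library for 8 members with small unadjusted p between glucose levels, 4 per direction (x axis), circles for NG and triangles for HG. The 8 were picked for small p, so the gap between groups follows from that choice. At Psap the values were 1.27 and 8.87 in NG against 57.7 to 62.0 in HG. None of the 8 passed the adjusted threshold.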

How the data were processed

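Accessible chromatin was measured in 6 ATAC-seq libraries, 3 at each glucose level. The submitters' processing notes name the aligner Bowtie 1.0.0, the trimmer cutadapt 1.0, FastQC, Picard 1.90, SAMtools 0.1.19, the peak caller MACS2 2.1.0, DiffBind 1.12.3, edgeR and the build mm10, with no settings. Any shift of reads for the transposase cut is a setting not given in the sources used here. All of the deposited narrowPeak lists, 1 per library, hold for each peak an integer score, a fold enrichment (a ratio to local background), a -log10 p and a -log10 q, as the authors' peak caller gave them. The smallest deposited -log10 q was 1.30. No read counts are in these lists.

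From them, in Python 3.11.15 (pandas 2.3.3, SciPy 1.17.1), peaks of lists with at least 1000 peaks were merged and set against RefSeq gene ends on GRCm38.p6. Ranks were fitted with limma 3.58.1 in R 4.3.3 with Benjamini-Hochberg adjustment. The fit was checked on simulated data whose noise was set by the spread among HG libraries alone, so the check does not cover the NG spread. The members, gene lists and motifs were chosen with earlier results of these data known. Named genes were the 12 strongest and 3 weakest members, the 5 widest, 5 per direction by rank p (1 is not reported here), the first 3 per list, all members of lists of other cell types, those at the 1 kb limit, 5 far ends and 5 of NG replicate 2; others were named after their values were seen. Members with clone-type symbols (Gm numbers, Rik clones and similar) were passed over when the strongest, weakest, widest, rank-p and far-end members were named. Strand and starts came from the RefSeq promoter table. Coordinates count from 1.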

Additional observations from a re-analysis of the deposited data

Results flagged for a closer look

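Signals also appeared in data that no comparison used. The list of NG replicate 2 held 66 peaks, 14 of them mitochondrial, and all 52 autosomal peaks fell in regions shared by the other 5 lists. Of these 52 peaks, 27 fell in shared regions at 1 gene end (51.9%, Wilson 95% interval 38.7 to 64.9%, counting error only), beside 45.7% of all shared regions. Of the 27, 26 stood at percentile 90 or above in their weakest library. By that list's own order the first were Snx8, Klf2, Clic4, Inpp5a and Tpt1. The X chromosome, left out by the rule, held 109 regions that met it otherwise, at 108 of 966 protein-coding genes (11.2%).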

How the results depend on the processing

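The count of 5544 members ran from 5564 to 5967 when 1 library was left out, and from 4259 to 5654 when peaks needed a -log10 q of 5, when lists were cut to equal length, when peaks within 200 bp were joined and with windows of 500 bp or 2.5 kb. Leaving out 1 library, the summit distance between glucose levels ran from -3 to 1.33 bp and the width from -60.2 to 26 bp. The reversals were 1.33 bp without NG replicate 1 and 26 bp without NG replicate 3, where the lone NG library enters as 1 value, and the cause was not tested. Percentile differences from gene bodies, regions outside genes and paired ends ran from 14.5 to 15.1, 17.9 to 18.98 and -0.986 to -0.555, and width differences from 46.8 to 55.9, 53 to 62.6 and -13 to -11 bp. Over all 11 alternatives the percentile differences ran from 12.3 to 15.1, 16.4 to 18.98 and -0.986 to -0.069 points. The paired-end difference was -0.071 with peaks ranked by fold enrichment and -0.069 in lists of equal length (exact sign-flip permutation p = 0.688 and 0.75). The leave-one-out ranges can lie beside the value over 5 libraries because the members change with the lists. With members kept, starts minus far ends ran from 15.6 to 19.8 points and 67.3 to 79.5 bp, and CpG-rich minus other starts from 8.10 to 10.1 points and 42.8 to 47.3 bp. The rank comparison called 0 members in limma under all 13 alternatives, with 217 to 399 members at an unadjusted p under 0.05. Over members, deviations from the group means correlated at -0.097 between libraries of replicate number 1 and 0.073 between those of number 3. With 2 NG libraries the NG deviations mirror each other, so these values cannot show or exclude a pairing. With the replicate block limma called 0 members (294 at an unadjusted p under 0.05, smallest adjusted p 0.208). In that setting the summit distance was -1.75 bp and the width -23.5 bp. Depth is unknown, and 2 NG against 3 HG libraries limit every comparison of glucose levels.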
